A study of Mus musculus with 3 samples.

Results

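The histone genes described here are the 9 genes that still carried a replication-dependent histone symbol of the older Hist1h form in the count tables of mouse embryonic stem cells and their cardiac derivatives. Members were all symbols starting with Hist1h, Hist2h, Hist3h or Hist4h, and these 9 were listed in each of the 3 tables, out of 27886 gene symbols in all. They comprised 4 H2A genes (Hist1h2al, Hist1h2an, Hist1h2ao and Hist1h2ap), 3 H2B genes (Hist1h2bp, Hist1h2bq and Hist1h2br) and 2 H4 genes (Hist1h4m and Hist1h4n), with no H1 and no H3 gene. Most other replication-dependent histone genes were listed under newer symbols such as H2ac12 or H4c4. Of these, 59 were listed in at least 1 table, and they serve as the comparison.

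The cells were male F1 hybrids of C57BL/6 (the substrain C57BL/6J in the study's methods) and CAST/EiJ, profiled as 215 mESC, 175 CPCC and 232 CB cells with 1 sample per culture. The mESC, derived in the study as clones from blastocysts, were kept with 2i inhibitors and LIF. The cardiac precursor cell cultures (CPCC) were obtained from them through embryoid bodies grown with ascorbic acid, and then passaged with EGF and Fgf2. The cardiac bodies (CB) were beating structures, also grown with ascorbic acid. All groups shared the hybrid genome and carried no induced mutation or transgene named in the labels. Because each culture is 1 sample, no difference between cultures was tested and no p-value is given. The values of the 8 sequencing pools (3 mESC, 2 CPCC and 3 CB) are given as a description of spread, since no label ties a pool to a separate clone or culture. The 3 tables shared none of their column names.

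Replication-dependent histones supply the chromatin of newly copied DNA. Their mRNAs are made mainly in S phase and, unlike other mRNAs, end in a short stem-loop bound by the protein Slbp in place of a poly(A) tail, and they are degraded when replication stops. The libraries were made by SMART-Seq from polyadenylated RNA with oligo(dT) primers, so a histone mRNA with a plain stem-loop end is not the intended template. Some histone genes also give polyadenylated transcripts, and oligo(dT) can start on a run of A inside a transcript. The levels below are therefore levels of captured cDNA, not of all histone mRNA.

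The sequence around the 3′ end differed among the members. Transcripts were taken from the GENCODE M21 annotation of GRCm38, and the stem-loop (in capitals) is shown with the 14 bases before it, because these bases separate the most abundant member and its near copy from the rest:
Hist1h2ap: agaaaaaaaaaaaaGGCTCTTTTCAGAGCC
Hist1h2ao: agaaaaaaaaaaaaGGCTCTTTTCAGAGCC
Hist1h2bp: actccaaacacaaaGGCTCTTTTCAGAGCC
Hist1h4m: ctttctcaactaaaGGCCCTTTTCAGGGCC
Hist1h4n: ctttctcaactaaaGGCCCTTTTCAGGGCC
Hist1h2ap and Hist1h2ao had the same 30 bases, with a run of 12 A directly before the loop. Among the 70 annotated replication-dependent histone genes, 3 held a run of 12 or more A anywhere in a transcript, namely Hist1h2ap, Hist1h2ao and, with 15, H2ac6, as far as the annotated transcripts reach. A stem-loop was found in 46 of the 70, and 3 of these 46 had a run of 8 or more A within the 30 bases before it (Hist1h2ap, Hist1h2ao and H2ac8).

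The 3 H2B members had annotated transcripts that ended after a poly(A) signal, the hexamer AATAAA or ATTAAA, instead of at the loop. Either hexamer was in the last 50 bases of a transcript in 17 of the 70 genes. These longer transcripts are shown from the signal (in capitals) onward, for at most 30 bases:
Hist1h2bp: AATAAAggtttcaatctatccca
Hist1h2bq: ATTAAAtaaatttgtttcttctcctgcctc
Hist1h2br: ATTAAAtaaatttgtttcttctcctgcctc
The 30 bases shown for Hist1h2bq and Hist1h2br were the same, and their transcripts may run on past them. Another annotated transcript of Hist1h2br had other bases after its signal. No stem-loop was found in the annotated transcripts of Hist1h2bq, Hist1h2br, Hist1h2an or Hist1h2al. The transcript of Hist1h2an was annotated with its coding part only, so its 3′ end was outside the annotated sequence.

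Of the members, 8 lay in 1 block of chromosome 13, chr13:21786826-21837530 in GRCm38. Hist1h2an (chr13:21786826-21787218, minus strand) and Hist1h2bp (chr13:21787461-21789213, plus) formed the first group. The second group held Hist1h2bq (chr13:21806612-21810197, minus), Hist1h2ao (chr13:21810465-21810944, plus) and Hist1h4m (chr13:21811746-21812147, plus). The last group held the same types in the opposite orientation: Hist1h4n (chr13:21831767-21832196, minus), Hist1h2ap (chr13:21833026-21833507, minus) and Hist1h2br (chr13:21833743-21837530, plus). Hist1h2al lay apart on the same chromosome (chr13:51202727-51203065, minus) and was annotated as a processed pseudogene, a copy of an mRNA inserted in the genome.

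**Figure D1:**
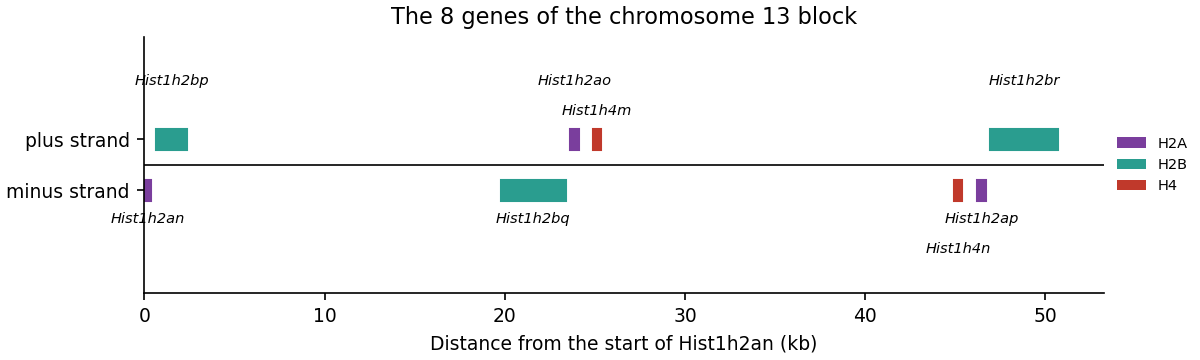
Position of the 8 members of the chromosome 13 block, as distance in kb from the start of Hist1h2an, with plus-strand genes above and minus-strand genes below the line and the histone type in colour. The group of Hist1h2bq, Hist1h2ao and Hist1h4m and the group of Hist1h4n, Hist1h2ap and Hist1h2br mirror each other, and the wide bars of H2B genes span their longer transcripts.

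The members share much of their sequence, which limits how well reads can be assigned to 1 gene. Of the distinct stretches as long as 1 read in the annotated transcripts, 91.6% of those of Hist1h2ap also occurred in another gene, all of them in Hist1h2ao. The share was 92.1% for Hist1h2ao, 81.8% for Hist1h2an, 93.6% for Hist1h2bq, 85.3% for Hist1h2br, 87.1% for Hist1h4m and 79.1% for Hist1h4n. It was lower for Hist1h2bp, at 25.9%, and 0 for Hist1h2al. Of the member values above 0, 80.5% in mESC and 78.7% in CB were not whole numbers, against 29.2% and 31.2% over all genes. In CPCC all values were whole. How reads were divided among the copies was not stated, may differ between the CPCC table and the other 2, and its part in any ratio that involves CPCC was not tested. The level of a single copy is therefore uncertain, above all the division between Hist1h2ap and Hist1h2ao.

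Depth and culture identity bear on all values. The median cell had 1528316 counts in mESC, 1437414 in CPCC and 1397869 in CB, and 8, 1 and 9 cells had under 10000. Pluripotency markers summed to 9571, 2676 and 30.5 CPM (counts scaled to the same total in each culture), neither Pou5f1 nor Dppa5a being listed for CB. Of the CB sum, Sox2 alone held 27.7 CPM. The study reports cardiac fibroblasts among its CB cells, beside cardiomyocytes and other cell types. In CB the 6 cardiomyocyte markers summed to 207 CPM and the 6 fibroblast markers to 8420 CPM, so fibroblast markers exceeded cardiomyocyte markers. The CB pools stood apart in this, since the fibroblast sum was 13265, 375 and 13702 CPM by pool and the cardiomyocyte sum 72.996, 481 and 14.1 CPM, and the cardiomyocyte sum was the larger in the second pool only. Smooth muscle markers were highest in CPCC, at 5495 CPM against 1291 in CB. The 4 blood markers (Ptprc, C1qb, C1qc and Fcrls) summed to 1664 CPM in CPCC, all of it from the second pool, at 0 in the first and 3222 CPM in the second. Pluripotency markers were at 4690 and 790.1 CPM in the same pools, so these markers differed between the CPCC pools too. The 4 endothelial markers summed to 263 CPM in CB and the 4 epithelial and endoderm markers to 640.2 CPM. In sums over a culture, fewer cells with histone mRNA and less of it per cell cannot be told apart, so per-cell values follow the sums.

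Almost all captured histone signal of the members came from Hist1h2ap, a gene for the core histone H2A. Counts were summed over all cells of a culture and scaled to its total. The 9 members then summed to 554 CPM in mESC, 507 in CPCC and 298 in CB. Hist1h2ap supplied 96.4%, 96.3% and 94.7% of these counts. By type, the 4 H2A members summed to 547, 498 and 291 CPM in mESC, CPCC and CB. The 3 H2B members summed to 5.62, 7.30 and 4.62 CPM, and the 2 H4 members to 1.75, 1.53 and 2.17 CPM. The genes of newer symbols, which include H1 and H3, summed to 240.3 CPM over the 55 listed for mESC, 291 over the 59 listed for CPCC and 306 over the 57 listed for CB.

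The summed level was lowest in CB, but the pools within CB spread more widely than the cultures did. The member sums were 613, 491 and 574 CPM in the mESC pools, 707 and 319 in the CPCC pools and 259, 573 and 62.3 in the CB pools. The second CB pool lay within the range of the mESC pools, the other CB pools lay below every mESC pool, and the CPCC pools lay on both sides of mESC. The second CB pool was also the pool with the lowest fibroblast and the highest cardiomyocyte markers in CB, and the lower CPCC pool was the one with the blood markers. The part of cell makeup in these levels was not tested. On the log2(CPM + 1) scale the summed level differed by -0.13 for CPCC against mESC, -0.89 for CB against mESC and -0.76 for CB against CPCC. With each pool left out in turn these differences ranged from -0.79 to 0.35, from -2.17 to -0.23 and from -2.05 to -0.10. Without the first CPCC pool the first became -0.79 and without the second 0.35, and without the second CB pool the others became -2.17 and -2.05.

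Hist1h2ap reached 534 CPM in mESC (532 to 537), 488 CPM in CPCC (486 to 491) and 282 CPM in CB (280.3 to 284). The intervals in parentheses are exact Poisson 95% intervals of the summed counts, here and below, and cover counting error only. Per kb of coding length this was 1359, 1242 and 718 CPM. By pool it was 595, 473 and 550.4 CPM in the mESC pools, 685 and 304 in the CPCC pools and 242, 547 and 56.5 in the CB pools. The third CB pool was the lowest of all 8, and the ranges of the cultures overlapped in all 3 pairs. The log2 ratios were -0.13 for CPCC against mESC, -0.92 for CB against mESC and -0.79 for CB against CPCC. At least 1 count of Hist1h2ap was found in 96.3% of mESC, 90.9% of CPCC and 66.4% of CB cells, and after thinning each cell to 430000 counts in 99.5%, 91.7% and 64.8%. Thinning left out 22 mESC, 18 CPCC and 22 CB cells.

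Hist1h2ao, the H2A copy with the same loop and bases before it, was far lower. Its level was 9.79 CPM in mESC (9.46 to 10.1), 7.70 CPM in CPCC (7.38 to 8.03) and 7.12 CPM in CB (6.84 to 7.41), or 24.9, 19.6 and 18.1 CPM per kb of coding length. The log2 ratio was -0.41 for CB against mESC and -0.099 for CB against CPCC. With equal weight per cell these turned positive, at 0.84 and 1.39. Single pools held 8.24, 8.51 and 13.1 CPM in the mESC pools, 10.3 and 5.28 in the CPCC pools and 11.9, 11.7 and 0.825 in the CB pools. The third CB pool was low and the rest overlapped between cultures. It was detected in 76.3% of mESC, 60.0% of CPCC and 36.2% of CB cells. Over cells its CPM followed that of Hist1h2ap, with a Spearman rho of 0.76 in mESC (215 cells), 0.86 in CPCC (175) and 0.88 in CB (232). These cells share libraries and the 2 genes share reads.

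The other H2A members were low. Hist1h2an was at 2.31 CPM in mESC (2.16 to 2.48), 1.68 CPM in CPCC (1.54 to 1.85) and 1.004 CPM in CB (0.901 to 1.12), detected in 35.3% of mESC, 27.4% of CPCC and 14.7% of CB cells. By pool it was 2.61, 1.60 and 2.94 CPM in the mESC pools, 2.41 and 1.01 in the CPCC pools and 1.69, 1.67 and 0.0961 in the CB pools. The third CB pool was again the lowest. Hist1h2al, the pseudogene, which shares no stretch of read length with another annotated histone gene, went the other way. Its level was 0.211 CPM in mESC (0.165 to 0.265), 0.496 CPM in CPCC (0.417 to 0.587) and 0.893 CPM in CB (0.795 to 0.9995). By pool it was 0.222, 0.232 and 0.173 CPM in the mESC pools, 0.577 and 0.421 in the CPCC pools and 0.844, 0.456 and 1.32 in the CB pools. Every CPCC and CB pool was above every mESC pool, at levels under 2 CPM. Its log2 ratios were 0.30 for CPCC against mESC, 0.64 for CB against mESC and 0.34 for CB against CPCC.

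Among the H2B genes, which encode the partner of H2A in the nucleosome, Hist1h2br was the highest. It reached 3.39 CPM in mESC (3.20 to 3.59), 5.35 CPM in CPCC (5.08 to 5.63) and 3.31 CPM in CB (3.12 to 3.51). By pool it was 2.42, 3.76 and 3.93 CPM in the mESC pools, 4.81 and 5.86 in the CPCC pools and 1.001, 7.12 and 0.812 in the CB pools. Both CPCC pools exceeded the mESC pools, and the CB pools lay on both sides. Its log2 ratios were 0.53 for CPCC against mESC, -0.026 for CB against mESC and -0.56 for CB against CPCC. Single cells weighed heavily, since 1 cell held 36.8% of its CPCC counts and 1 cell 38.5% of its CB counts. Its share of cells was 53.02% of mESC, 56.0% of CPCC and 24.6% of CB. It followed Hist1h2ap more weakly over cells than Hist1h2ao did, with a rho of 0.19, 0.47 and 0.30 in mESC, CPCC and CB. By pool this rho was 0.31, 0.11 and 0.099 in mESC, 0.55 and 0.30 in CPCC, and 0.23, 0.15 and 0.042 in CB. Every CB pool was thus below the value over all CB cells.

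Hist1h2bp was at 1.64 CPM in mESC (1.51 to 1.78), 1.26 CPM in CPCC (1.14 to 1.40) and 0.559 CPM in CB (0.482 to 0.644). Single pools held 1.81, 1.47 and 1.70 CPM in the mESC pools, 2.09 and 0.491 in the CPCC pools and 0.0606, 1.13 and 0.252 in the CB pools. Every CB pool was below every mESC pool, while the CPCC pools overlapped both. Its log2 ratio for CB against mESC was -0.76. It was detected in 33.95% of mESC, 26.3% of CPCC and 6.90% of CB cells. Hist1h2bq was at 0.584 CPM in mESC (0.507 to 0.669), 0.685 CPM in CPCC (0.591 to 0.790) and 0.748 CPM in CB (0.659 to 0.846), in 25.1% of mESC, 33.1% of CPCC and 16.8% of CB cells, and its pools overlapped in all 3 pairs.

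The H4 members, genes for the core histone that pairs with H3, were as sparse. Hist1h4m was at 0.952 CPM in mESC (0.852 to 1.06), 0.989 CPM in CPCC (0.875 to 1.11) and 1.43 CPM in CB (1.31 to 1.56), and 1 cell held 42.1% of its CB counts. Hist1h4n was at 0.793 CPM in mESC (0.701 to 0.890), 0.536 CPM in CPCC (0.453 to 0.630) and 0.740 CPM in CB (0.650 to 0.837). Hist1h4m was detected in 30.2% of mESC, 26.9% of CPCC and 16.8% of CB cells and Hist1h4n in 18.6% of mESC, 14.9% of CPCC and 6.03% of CB. The pools of both overlapped between the cultures.

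**Figure D2:**
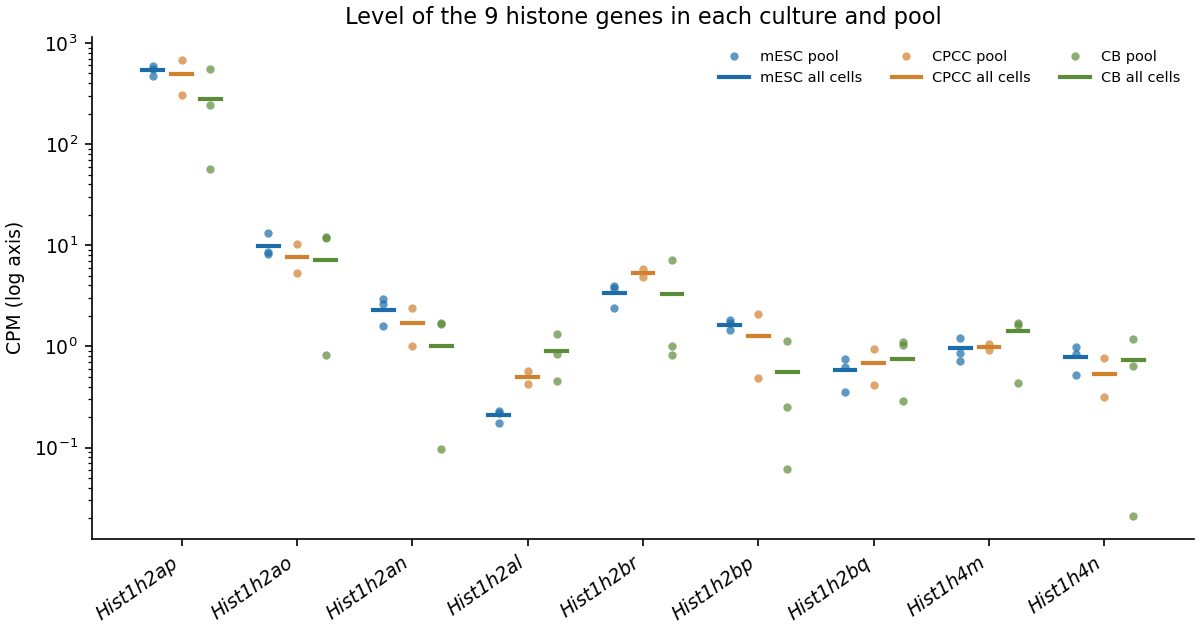
CPM of each member on a log axis, with a bar for all cells of a culture and a dot for each pool. Hist1h2ap stands at 534, 488 and 282 CPM, the other members at under 10 CPM, and the CB pools are spread most.

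None of the 9 members differed by 2-fold or more in any pair of cultures on the log2(CPM + 1) scale. For CPCC against mESC, 0 members were higher and 0 lower, where 13.4% of the 20272 genes listed in both tables were higher and 6.38% lower. For CB against mESC the counts were also 0 and 0, against 24.9% and 11.3% of 19855 genes. For CB against CPCC they were 0 and 0, against 17.0% and 7.54% of 20995 genes. The median log2 ratio over the members was -0.13, -0.044 and -0.099 in the 3 pairs, and over all genes -0.020, 0.13 and 0.14. The added 1 CPM is at or above the level of 5 of the members in at least 1 culture, so their ratios are pulled toward 0. With 0.1 CPM added in its place, 3 members passed 2-fold in CB against mESC (Hist1h2al higher, Hist1h2an and Hist1h2bp lower) and 1 in CB against CPCC (Hist1h2bp, lower). Without the second CB pool 5 members were lower by 2-fold in CB against mESC (Hist1h2ap, Hist1h2ao, Hist1h2an, Hist1h2bp and Hist1h2br) and 2 in CB against CPCC (Hist1h2ap and Hist1h2br). Without the second mESC pool 1 passed in CB against mESC, and without the second CPCC pool 1 in CB against CPCC. The median over members in CB against mESC was 0.085 without the first CB pool, -1.06 without the second and 0.23 without the third. It was 0.079 in CB against CPCC without the third CB pool and 0.064 without the first CPCC pool, and 0.064 in CPCC against mESC without the second CPCC pool. With TMM or DESeq2 factors Hist1h2ap passed 2-fold in CB against mESC, at -1.09 and -1.15. With equal weight per cell Hist1h2ao passed 2-fold in CB against CPCC, higher at 1.39. Every pool of the first culture was above every pool of the second for 2 members in CPCC against mESC (19.0% of genes), Hist1h2al and Hist1h2br. The same held for 1 member, Hist1h2al, in CB against mESC (24.7% of genes). For Hist1h2br in CPCC, 1 cell held a large part of the counts, as given above. Every pool was below for Hist1h2bp in CB against mESC (18.1% of genes), for no member in CPCC against mESC (19.4%), and all 9 overlapped in CB against CPCC (17.9% of genes above and 10.1% below).

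Some of the newer-symbol histone genes, chosen after their values were seen, were set beside Hist1h2ap by pool. Among these, some kept a narrower range of ratio to Hist1h2ap than others. H2ac12, H2ac7 and H2ac8, all H2A genes, had 11.5% to 18.8%, 4.95% to 7.29% and 2.27% to 4.74% of the counts of Hist1h2ap over the 8 pools, although Hist1h2ap itself ran from 56.5 to 685 CPM. The highest of these percentages was 1.64, 1.47 and 2.09 times the lowest. For the members Hist1h2ao, Hist1h2an and Hist1h2br it was 3.56, 4.10 and 4.75 times. H2bc4 and H1f2, which are known also as polyadenylated transcripts, ran from 1.19% to 81.8% and from 0.749% to 109% of Hist1h2ap, and H2ac18 from 0.344% to 57.1%. Of the distinct stretches of read length in H2ac12, H2ac7 and H2ac8, 39.5%, 26.6% and 19.3% were also in a transcript of Hist1h2ap, and the part of shared reads in these ratios was not tested.

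**Figure D3:**
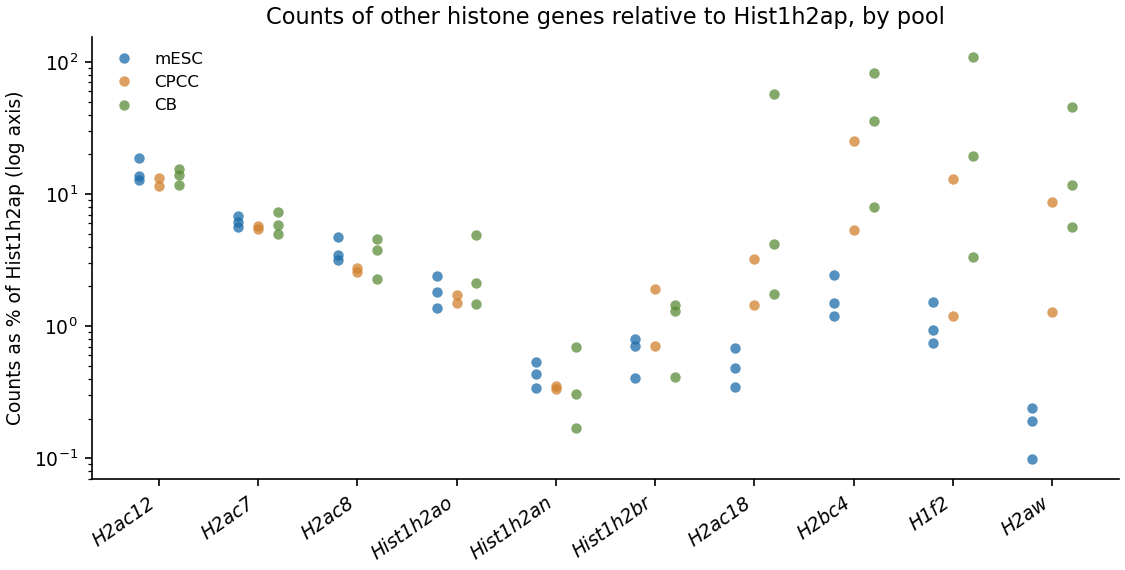
Counts of 10 other histone genes as a percentage of those of Hist1h2ap in each of the 8 pools, on a log axis, coloured by culture. H2ac12, H2ac7 and H2ac8 keep within 2.09-fold, while H2ac18, H2bc4 and H2aw are lowest in the mESC pools and H1f2 spreads from 0.749% to 109%.

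Of the 55 newer-symbol genes listed in both CPCC and mESC, 4 were higher and 2 lower by 2-fold. In CB against mESC it was 6 and 4 of 54, and in CB against CPCC 3 and 0 of 57. Over all genes 13.4% were higher and 6.38% lower in the first pair, 24.9% and 11.3% in the second and 17.0% and 7.54% in the third. The median log2 ratios of the newer-symbol genes were -0.082, -0.14 and -0.074. H2bc4 was at 9.23 CPM in mESC, 57.2 in CPCC and 52.8 in CB. H1f2, a linker histone gene, was at 5.58, 24.2 and 42.2 CPM. By pool H1f2 was at 4.46, 4.40 and 8.34 CPM in mESC, 8.17 and 39.3 in CPCC and 47.5, 18.4 and 61.8 in CB, so the first CPCC pool lay within the mESC range and the CPCC value rested on the second. Every CB pool was above every mESC pool. Over cells both followed Hist1h2ap weakly or not at all: the rho with H2bc4 was 0.17, 0.054 and 0.014, and with H1f2 0.14, 0.058 and 0.054, in mESC, CPCC and CB. Within CB pools the rho with H1f2 was 0.26, 0.20 and 0.10, each above the value over all CB cells, and with H2bc4 it was 0.14, -0.10 and -0.16.

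Genes with a run of A near the loop or elsewhere in the transcript had both high and low levels. The mean over the cultures was 435 CPM for Hist1h2ap and 8.20 CPM for Hist1h2ao, which have the same run and mostly shared reads. It was 14.3 CPM for H2ac8 and 5.78 CPM for H2ac6, which has the longest run. No relation of the run to the level is given over all histone genes, because no stem-loop was found for 20 of the 63 with a transcript and a value in all 3 tables, and several of these were annotated with little more than their coding part, among them H2ac12 (405 bases, 387 of them coding). A run of A near the 3′ end could not be seen in such genes. The part of priming inside the transcript in these levels was not tested.

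Per cell, the medians of the member sum lay further apart than the summed levels of the cultures. The median mESC cell had 519 CPM of the 9 members (quartiles 179 and 851, highest 2258). In CPCC the median was 199 CPM (quartiles 12.997 and 1021, highest 4662). In CB it was 19.3 CPM (quartiles 2.34 and 115, highest 13927). A sum under 10 CPM was found in 2.79% of mESC, 20.6% of CPCC and 40.1% of CB cells. A sum of 1000 CPM or more was found in 17.7%, 25.7% and 9.91%. By pool the share under 10 CPM was 1.11%, 2.60% and 6.25% in mESC, 10.1% and 29.2% in CPCC and 59.4%, 10.3% and 51.8% in CB, so both CPCC pools were above every mESC pool. The share at 1000 CPM or more was 26.7%, 6.49% and 18.8% in mESC, 39.2% and 14.6% in CPCC and 10.1%, 16.7% and 3.53% in CB. Its order in CPCC and mESC rested on the first CPCC pool, since the second lay below the pooled mESC share.

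**Figure D4:**
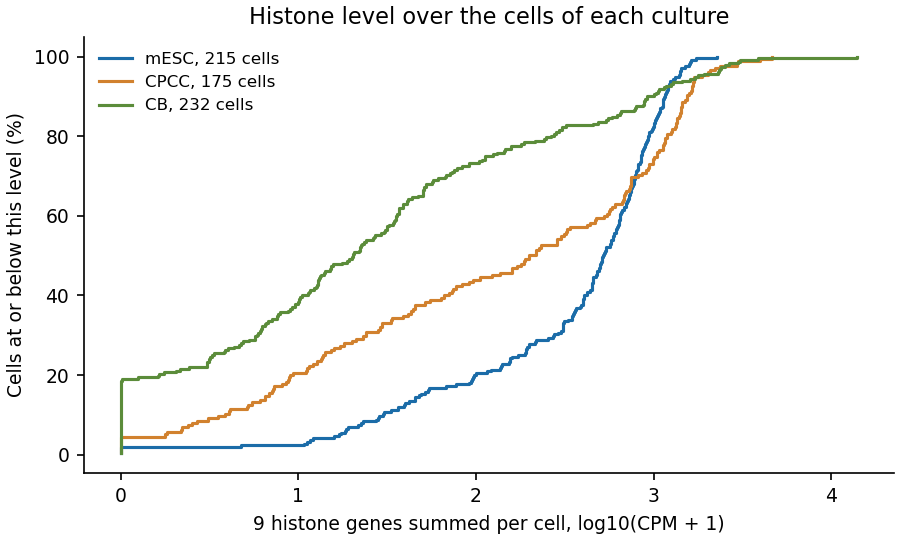
Percentage of cells at or below each member sum, on a log10(CPM + 1) axis, for the 3 cultures. The mESC curve climbs between 2 and 3 on this axis, the CPCC curve rises evenly, and the CB curve passes 40.1% by 10 CPM.

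Within cultures the pools differed in the same measure. In CB the median member sum per cell was 7.93, 126 and 8.56 CPM in pools 1, 2 and 3. In CPCC it was 570.2 and 61.2 CPM, and in mESC 644, 492 and 501 CPM. The highest CB cell lay in the first pool. At 13927 CPM with a total of 310799 counts, it held 4.30% of the member counts of CB, and 12930 CPM of it was Hist1h2ap. Its share of the member counts of the first CB pool alone was larger, so the values of that pool lean more on this cell. The next CB cell was at 3850 CPM. The mitochondrial share had a rho of -0.15, -0.12 and -0.17 with the member sum in mESC, CPCC and CB, and the total counts per cell one of -0.025, -0.10 and 0.20.

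The relation of the member sum to Mki67, the gene of the proliferation marker Ki-67 that accumulates toward mitosis, had opposite signs in mESC and in the derived cultures. The Spearman rho over cells stood at -0.18 in mESC (215 cells), 0.42 in CPCC (175 cells) and 0.55 in CB (232 cells). By pool it was -0.36, -0.15 and 0.093 in mESC, 0.31 and 0.49 in CPCC, and 0.41, 0.45 and 0.33 in CB. The sign held in all CPCC and CB pools, and in the third mESC pool it was positive. The cells of a pool share a library preparation and are not replicates, and the difference between cultures was not tested.

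Mki67 was detected in 93.02% of mESC, 77.7% of CPCC and 37.9% of CB cells, so in mESC few cells lacked it. In CPCC the median member sum was 536 CPM in the 136 cells with Mki67 and 7.11 CPM in the 39 without. In CB it was 199.5 CPM in the 88 cells with Mki67 and 7.86 CPM in the 144 without. By pool the medians with and without Mki67 were 699 and 5.48 CPM in the first CPCC pool and 318 and 7.33 CPM in the second. The second CPCC pool, which held the blood markers, also held 32 of the 39 CPCC cells without Mki67. Within it the medians with and without Mki67 were 285 and 12.1 CPM in the 52 cells with C1qb, and 378 and 3.01 CPM in the 44 cells without it, so the gap was present in both. In the CB pools the medians with and without Mki67 were 12.4 and 5.35 CPM, 468 and 36.6 CPM, and 49.1 and 6.35 CPM. The second CB pool held 54 of the 88 CB cells with Mki67 and the third held 5, so the size of the pooled CB gap depends on how the pools are mixed, while the median was higher with Mki67 in all 5 CPCC and CB pools. In mESC the median was 517 CPM in 200 cells with and 529.7 CPM in 15 without, and these 15 had a median of 16721 counts. A member sum of 100 CPM or more was found in 70.6% of CPCC cells with Mki67 (exact 95% binomial interval 62.2% to 78.1%) and 5.13% of those without (0.627% to 17.3%). In CB the shares were 54.5% (43.6% to 65.2%) and 9.72% (5.42% to 15.8%). By CB pool they were 34.5% and 12.5%, 66.7% and 20.8%, and, in the third pool, 2 of 5 and 4 of 80 cells. The intervals cover counting error only.

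Among cells with Mki67, the order of the member sum by Mki67 level differed between pools as well as between cultures. With these cells divided by Mki67 into 3 groups of near-equal size, mESC cells had median member sums of 634, 587 and 399 CPM from the lowest to the highest Mki67. In CPCC the medians were 284, 814 and 453 CPM, highest in the middle. In CB they were 36.1, 304 and 511 CPM, lowest to highest, in groups of 29 to 30 cells that mix the pools. With the groups made within each pool, the median rose at both steps in none of the 8 pools, of which the third CB pool had only 5 such cells. It fell at both steps in the first and second mESC pools. The middle group was highest in the third mESC pool, at 193, 711 and 457 CPM, in both CPCC pools, at 395, 1052 and 812 CPM and 284, 337 and 318 CPM, in the second CB pool, at 140.4, 603 and 468 CPM, and in the third CB pool. In the first CB pool the highest Mki67 group had the highest median, at 9.06, 2.75 and 901 CPM in 9, 10 and 10 cells.

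**Figure D5:**
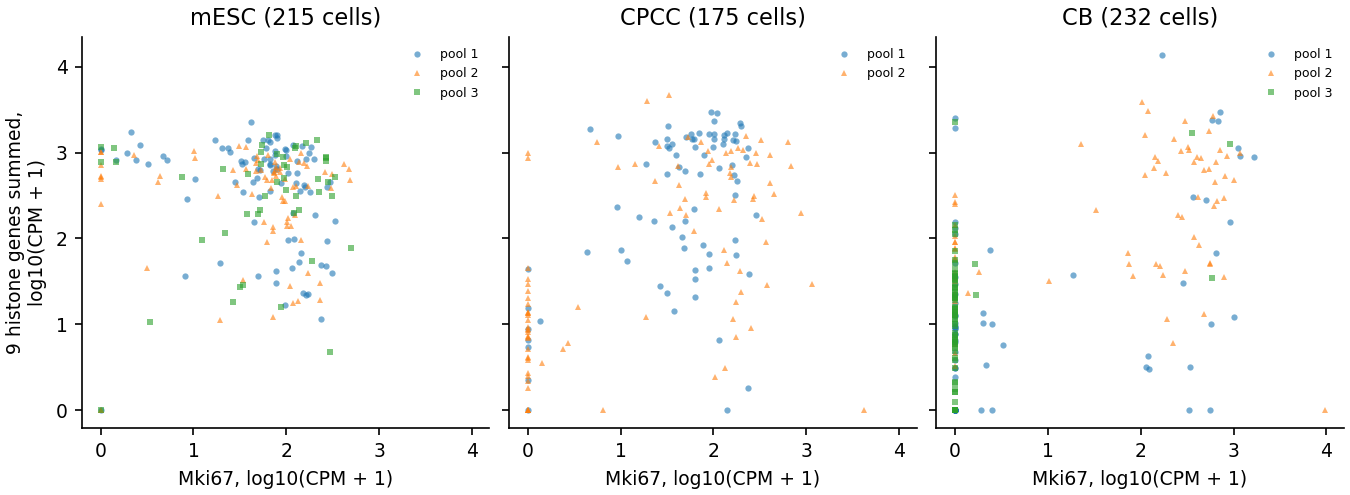
Member sum against Mki67 per cell, both as log10(CPM + 1), in 1 panel per culture with a marker for each pool. Cells without Mki67 form the column at 0, which is nearly empty in mESC and holds 144 of the 232 CB cells, most of them low in the members.

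The relation of the members to S phase genes was positive in each culture, and that to G2 and M phase genes differed in sign. The rho of the member sum with the sum of 21 S phase genes such as Pcna and the Mcm genes stood at 0.37 in mESC, 0.68 in CPCC and 0.60 in CB. It was positive in all 8 pools and lowest in the third CB pool, at 0.055. With 17 G2 and M phase genes such as Cdk1 and Top2a it was -0.43, 0.52 and 0.61, and all 3 mESC pools were negative. By pool it was 0.24 and 0.63 in CPCC and 0.57, 0.45 and 0.073 in CB, so the third CB pool was near 0 for these genes too. With Slbp, the stem-loop binding protein, it was 0.46, 0.59 and 0.41, with a range over the 8 pools from 0.17 to 0.58.

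The genes most like the members over cells were other histone genes. Over 8765 genes, each present in 25% or more of the cells in every culture, the mean rho with the member sum within the 8 pools was highest for H2ac12 (0.83), H2ac7 (0.79), H2ac8 (0.70), H2ac6 (0.68) and the H4 gene H4c4 (0.55). Slbp stood at rank 7 with 0.40 and Pcna, the sliding clamp of DNA replication, at rank 8 with 0.40. Mki67 stood at rank 539, with a mean of 0.20 and a range over pools from -0.36 to 0.49.

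Lists of genes around the members held genes past 2-fold, to be read against the shares of all genes above. Of 21 S phase genes, 4 were lower by 2-fold in CPCC against mESC, 16 in CB against mESC and 7 in CB against CPCC, and none was higher. Their median log2 ratios were -0.71, -1.51 and -0.91, beside -0.13, -0.92 and -0.79 for Hist1h2ap. Of 17 G2 and M phase genes, 0, 13 and 8 were lower, with medians of -0.55, -1.57 and -0.95. The 3 pairs share cultures, so their values are not independent.

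Of 20 genes for the transcription, processing and decay of histone mRNA, among them Cdk2 and the cyclin E genes, which act on Npat, 0 were higher and 1 lower in CPCC against mESC, 2 and 4 in CB against mESC, and 1 and 3 in CB against CPCC. Those lower were Coil in CPCC against mESC, Coil, Ccne1, Zfp473 and Cpsf3 in CB against mESC, and Ccne1, Ccne2 and Zfp473 in CB against CPCC, of which Ccne1 and Ccne2 are cyclins and Ccne2 is also among the S phase genes. Those higher were Tut4 and Tut7, genes for uridyl transferases, in CB against mESC, and Tut4 in CB against CPCC. Slbp was at 432, 323 and 243 CPM in mESC, CPCC and CB, with 212, 349 and 159 in the CB pools, of which the third was the lowest as for Hist1h2ap. Of 16 histone chaperone genes, which carry histones to DNA, 0 were higher and 0 lower in CPCC against mESC, 1 and 3 in CB against mESC, and 0 and 3 in CB against CPCC. Of 11 replacement histone genes, whose polyadenylated mRNAs are made outside S phase too, 0 and 0, 4 and 2, and 4 and 0 were higher and lower in these pairs. Over all genes, 13.4% were higher and 6.38% lower in CPCC against mESC, and 24.9% and 11.3% in CB against mESC. In CB against CPCC it was 17.0% and 7.54%, and these shares apply to each list here. H3f3b, a gene for the variant H3.3, was at 1193, 2145 and 3865 CPM, and H1f0, a gene for the replacement linker histone H1.0, at 29.5, 43.7 and 145 CPM. For both, every CB pool was above every mESC pool, whereas Hist1h2ap overlapped. H2az1, a variant of H2A, was at 1756, 1309 and 909 CPM, with every CB pool below every mESC pool.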

How the data were processed

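The authors captured single cells with the Fluidigm C1 system, made cDNA with SMART-Seq v4 and Nextera XT, and sequenced paired reads. Reads were aligned to GRCm38 with STAR (version 2.7 per the labels) in Partek Flow. The values deposited in the mESC and CB tables are estimated counts per gene and cell, not scaled. The CPCC table holds whole counts. How reads were assigned to genes, and whether by strand, is not given in the sources used here. In the CPCC data, 2 columns that map to no cell, 208 rows without a gene and 23 symbols turned into dates (0.139% of counts) were left out. Tables list only genes found in that culture.

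Counts were summed over cells and expressed as CPM, and ratios are log2(CPM + 1) differences. Detection was 1 count or more. Cells were thinned to 430000 counts for shares. Values were rounded for intervals (exact Poisson and Clopper-Pearson, 95%), which cover counting error only. The labels give 1 sample per culture, so no test was made, and replicates in the label of mESC could not be tied to cells. Newer symbols were matched through RefSeq synonyms and GENCODE M21 positions in GRCm38. Stem-loops, poly(A) signals in the last 50 bases and shared stretches of read length were searched in annotated transcripts, which are 1 release apart from the annotation the authors name.

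The members, lists and comparisons were chosen with earlier results of these data known. The named genes are all members, the 5 genes most like them over cells, Mki67, and up to 4 genes per list. H2ac18, H2aw, the histone genes set beside Hist1h2ap, C1qb and the genes past 2-fold among those for histone mRNA were chosen after their values were seen. Alternatives were TMM (edgeR 4.0.16) and DESeq2 1.42.0 scaling, equal weight per cell, pseudocounts of 0.1 and 10 CPM, cells with 100000 counts or more and at most 25% mitochondrial counts, totals without mitochondrial and the 20 most abundant genes, a minimum of 1 CPM and pools left out. Ratio and correlation code was tested on simulated data. Python 3.11.15, pandas 2.3.3, SciPy 1.17.1 and R 4.3.3 were used.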

Additional observations from a re-analysis of the deposited data

Results flagged for a closer look

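The sign of the relation between the member sum and Mki67 over cells differed between cultures, with a Spearman rho of -0.18 in mESC (215 cells), 0.42 in CPCC (175 cells) and 0.55 in CB (232 cells). The opposite signs singled out this result. The difference itself was not tested, and the third mESC pool was positive at 0.093. Mki67 was detected in 93.02% of mESC, 77.7% of CPCC and 37.9% of CB cells. The sum of S phase genes had a rho with Mki67 of -0.093, 0.39 and 0.53 in the same cells. By pool this was 0.29 and 0.45 in CPCC and 0.38, 0.074 and 0.23 in CB, so each CB pool was below the value over all CB cells. The part of depth, culture mixture or cell cycle in this difference was not tested.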

How the results depend on the processing

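Where 3 values stand together they belong to CPCC against mESC, then CB against mESC, then CB against CPCC. The summed log2 difference was -0.11, -1.06 and -0.95 under TMM scaling, -0.16, -1.12 and -0.96 under DESeq2 scaling and 0.037, -0.81 and -0.84 with equal weight per cell, where the first turned positive. It was -0.87 and -0.75 for the CB pairs with 10 CPM added. Leaving out pools gave -0.79 to 0.35, -2.17 to -0.23 and -2.05 to -0.10. Added after seeing the data, the sum with the other histone genes gave 0.000437, -0.41 and -0.40, the sum without Hist1h2ap -0.069, -0.30 and -0.23, and the CB pairs without the highest CB cell -0.95 and -0.83. The CB differences were negative under every alternative run.

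The median over members was -0.11 (TMM), -0.16 (DESeq2), 0.045 (equal weight) and -0.035 (10 CPM added) for CPCC against mESC, -0.20 (DESeq2) for CB against mESC, and -0.26 (TMM) and -0.27 (DESeq2) for CB against CPCC. With a minimum of 1 CPM in 1 culture it was -0.22, -0.57 and -0.48, from fewer genes. Leaving out pools gave -0.45 to 0.064, -1.06 to 0.23 and -0.75 to 0.079. Members past 2-fold were 1 (TMM), 1 (DESeq2) and 3 (0.1 CPM added) in CB against mESC, and 1 (equal weight, Hist1h2ao higher) and 1 (0.1 CPM) in CB against CPCC. Leaving out pools gave 0 to 0, 0 to 5 and 0 to 2.

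For mESC, CPCC and CB the rho with Mki67 was -0.25, 0.43 and 0.60 in thinned cells, -0.25, 0.40 and 0.60 in filtered cells, -0.27, 0.59 and 0.71 with Top2a, -0.17, 0.34 and 0.45 without Hist1h2ap and -0.11, 0.32 and 0.52 for the number of members detected. In the 123 CPCC cells without C1qb, chosen after seeing the data, it was 0.41. Single pools gave -0.36, -0.15 and 0.093 in mESC, 0.31 and 0.49 in CPCC, and 0.41, 0.45 and 0.33 in CB. The median share of cells with a member, 33.95%, 27.4% and 16.8%, became 26.4% and 19.1% for mESC and CPCC after thinning, and 15.8%, 13.1% and 9.91% at 5 or more counts. Leaving out pools gave 31.9% to 34.4%, 23.96% to 36.7% and 12.99% to 21.1%. The cause of these shifts was not tested.

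No paired analysis was possible because each culture is 1 sample and no label pairs pools. Each comparison rests on 1 sample per culture, 8 of the 9 members had few counts, and shared sequence leaves the level of single copies uncertain.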

Other observations

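Replacement histone genes and the members differed in how they followed each other over cells. The rho of Hist1h2ap with H2az1 stood at 0.0089 in mESC, 0.60 in CPCC and 0.61 in CB. With H2ax, the variant phosphorylated at DNA breaks, it was 0.031, 0.52 and 0.52. With H1f0 it was 0.15, 0.032 and 0.16, and with H3f3b 0.19, 0.16 and -0.10. By CB pool the rho with H3f3b was 0.079, 0.41 and -0.21, positive in the first and second and negative in the third, and with H1f0 it was 0.17, 0.30 and 0.059. In the CPCC pools the rho with H1f0 was -0.072 and 0.12, and with H3f3b 0.29 and 0.23, both above the value over all CPCC cells. In the third CB pool the rho with H2az1 was 0.17 and with H2ax 0.13. Among the genes whose ratio to Hist1h2ap is given by pool, the 3 with the steadiest ratio were H2ac12, H2ac7 and H2ac8. These are H2A genes with stretches in common with it. The H2A members Hist1h2ao and Hist1h2an also had 92.1% and 26.4% of their stretches in common with it, but their ratios varied 3.56- and 4.10-fold. H2ac12 had a rho with Hist1h2ap of 0.91, 0.95 and 0.83 over the cells of mESC, CPCC and CB. These relations were computed over cells that share libraries and carry no test.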
